A study of Mus musculus with 8 samples.

Results

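The 34 genes described here encode the enzymes that build cholesterol and fatty acids, the proteins that switch these enzymes on and off, and the transporters that export sterols. They were taken by gene symbol from a count table of 29426 genes, and all 34 were found. By role they are 18 enzymes of sterol synthesis, 6 regulators or carriers of the sterol-sensing pathway, 8 genes of fatty acid synthesis and modification and 2 sterol exporters. The rule goes by gene function and symbol, and the list was drawn up with earlier results of these data known.

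Messenger RNA was sequenced from CD8+ T cells of mouse spleen in 8 libraries, 2 for each of the groups mCre-MP, mCre-TN, WT-MP and WT-TN. TN and MP are subsets separated by flow cytometry with CD44 and CD122 on beads-enriched CD8+ cells. MP is the subset with more Cd44 and Il2rb RNA, and the design text writes VM where the titles write MP. The mCre label stands beside miR-29 in the series title, and neither the deleted allele nor the promoter driving Cre is named. Spleens were from adult or neonatal mice, with no age given per library, and whether 2 libraries of a group came from separate animals is not stated either. All p-values therefore measure the spread between these libraries, which may be technical.

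Total counts per library lay between 13479586 and 30057658. The 5 CD8 T cell markers (Cd8a, Cd8b1, Cd3d, Cd3e and Cd3g) summed to 4498 to 4894 CPM (counts scaled by the library total) in all 8 libraries. The sort markers Cd44 and Il2rb (CD122) summed to 1228 to 1524 CPM in mCre-MP against 197 to 211 CPM in mCre-TN, and to 1447 to 1518 CPM in WT-MP against 201 to 221 CPM in WT-TN. In bulk RNA, fewer cells expressing a gene and less RNA of it per cell cannot be told apart.

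Cholesterol is made from acetyl-CoA through mevalonate, the isoprenoid farnesyl diphosphate, squalene and lanosterol. When sterols in the endoplasmic reticulum run low, SCAP escorts the membrane-bound factors SREBP1 and SREBP2 to the Golgi, where proteases release them to activate transcription of the synthesis genes. INSIG proteins hold SCAP back when sterols are plentiful, and oxysterols activate LXR, which induces the exporters ABCA1 and ABCG1. Lymphocytes raise sterol and fatty acid synthesis when they are activated to divide.

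Per length, the members spanned a wide range. Acly, which makes cytosolic acetyl-CoA from citrate, had the highest level, at 51.9 CPM per kb of merged exons in mCre-MP, 53.7 in mCre-TN, 49.4 in WT-MP and 54.5 in WT-TN. Srebf2 followed at 25.5, 39.2, 25.9 and 40.9 CPM per kb in the same groups, and Srebf1, Abcg1 and Fasn came next. By the mean of all 8 libraries the lowest tested member was Idi1, at 0.793, 1.26, 0.799 and 1.42 CPM per kb. Levels per kb use the exons of all annotated transcripts merged.

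**Figure D1:**
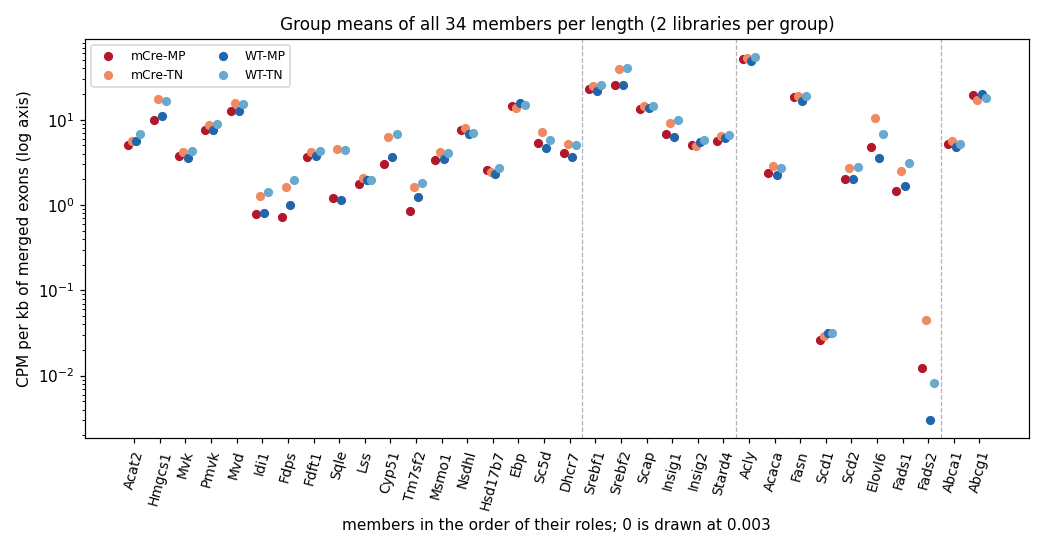
Mean CPM per kb of merged exons on a log axis for all 34 members, 4 groups of 2 libraries, with roles parted by dashed lines and a level of 0 drawn at the foot of the axis. Acly stood highest in each group, Scd1 and Fads2 lay far below the others, and Sqle and Cyp51 were lower in both MP groups than in both TN groups.

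An expression filter left 32 of the 34 members for testing, of 12313 genes in all. The members that did not pass are a pair of desaturase genes. Scd1, the main stearoyl-CoA desaturase of liver and fat, had 1 and 5 counts in mCre-MP, 4 and 3 in mCre-TN, 5 and 2 in WT-MP and 2 and 3 in WT-TN. Fads2, the delta-6 desaturase, had 0 and 2 counts in mCre-MP, 1 and 5 in mCre-TN, 0 and 0 in WT-MP and 0 and 1 in WT-TN. At these counts no difference was detectable.

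MP cells had lower levels of many sterol and fatty acid synthesis genes than TN cells in both genotypes. Differences were tested with edgeR's quasi-likelihood test, and a gene was called at a Benjamini-Hochberg adjusted p under 0.05 over all 12313 genes. In mCre, 15 of the 32 members were called lower and 1 higher in MP, whereas 15.5% of all genes were called lower and 17% higher. In WT, 16 were called lower and 1 higher, against 15.6% and 16.2% of all genes. The median log2 fold change of the 32 members was −0.207 in mCre and −0.255 in WT, beside medians of 0.00237 and −0.00188 over all genes. In mCre the MP libraries lay below both TN libraries for 23 members (37.5% of all genes did so) and above them for 2 (29.5%), and in WT for 26 (34.1%) and 1 (30%). The mCre and WT comparisons share no library, but both come from 1 fit that estimates the spread over all 8 libraries. In both, 14 of the 32 members were called lower. The share of all genes called lower in both was not counted, and it cannot exceed the 15.5% called lower in mCre. With DESeq2, Mvd, Msmo1, Acaca and Scd2 were not called in mCre (adjusted p = 0.0712 to 0.125), and Mvd, Tm7sf2 and Abcg1 were not called in WT (0.0585 to 0.103). Without WT-MP replicate 2 fewer members and fewer of all genes were called in WT. The median log2 fold change of the members was then −0.232, beside −0.00164 over all genes.

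By role, 9 of 18 sterol synthesis enzymes were called lower in mCre and 9 of 18 in WT, beside 15.5% and 15.6% of all genes. In either genotype 0 of the 18 were called higher, beside 17% and 16.2% of all genes. The 18 enzymes together summed to 309 and 308 CPM in mCre-MP, against 435 and 405 CPM in mCre-TN. In WT the sums were 318 and 313 CPM in WT-MP, against 401 and 428 CPM in WT-TN. Both MP groups lay below both TN groups without overlap in these sums.

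The enzymes that convert acetyl-CoA into mevalonate and then into isoprenoids fell unevenly. Hmgcs1, the cytosolic HMG-CoA synthase (GRCm38 chromosome 13, 119690379 to 119708260, plus strand), had 47.7 and 44.8 CPM in mCre-MP against 86.4 and 73.2 CPM in mCre-TN. In WT it had 52.8 and 47.9 CPM in WT-MP against 73.4 and 78.0 CPM in WT-TN. The subsets did not overlap in either genotype, and Hmgcs1 fell in MP by 0.76 in mCre (log2 scale, SE 0.0761, adjusted p = 2.99e-07) and by 0.57 in WT (SE 0.0773, adjusted p = 1.21e-05). Mvd, which decarboxylates mevalonate diphosphate, had 24.5 and 22.8 CPM in mCre-MP against 30.9 and 27.5 CPM in mCre-TN, and 24.5 and 22.9 CPM in WT-MP against 28.9 and 28.7 CPM in WT-TN. Its difference was small, −0.28 in mCre (SE 0.087, adjusted p = 0.0184) and −0.27 in WT (SE 0.0897, adjusted p = 0.0292). Mvd lost its call in mCre without mCre-TN replicate 1 (adjusted p = 0.237) or mCre-MP replicate 2 (0.157), and in WT without any 1 of the 4 WT libraries (adjusted p = 0.0529 to 0.189).

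Idi1, the isomerase that makes dimethylallyl diphosphate, was scarce, with 2.51 and 3.05 CPM in mCre-MP against 3.63 and 5.23 CPM in mCre-TN. WT-MP held 2.99 and 2.61 CPM against 4.82 and 5.11 CPM in WT-TN. Idi1 was called lower in WT alone (−0.81, SE 0.24, adjusted p = 0.0141), since the mCre difference of −0.61 (SE 0.236) had an adjusted p of 0.056. The WT call was lost without WT-TN replicate 2 (adjusted p = 0.0771) or WT-MP replicate 2 (0.0936), and Idi1 was called in mCre without mCre-TN replicate 1 (adjusted p = 0.0234). Fdps, which makes farnesyl diphosphate for sterols and protein prenylation, had 2.45 and 3.66 CPM in mCre-MP against 6.35 and 7.41 CPM in mCre-TN. It had 4.15 and 4.30 CPM in WT-MP against 7.64 and 8.93 CPM in WT-TN. Fdps fell by 1.10 in mCre (SE 0.203, adjusted p = 0.000296) and by 0.96 in WT (SE 0.198, adjusted p = 0.000858). On the same strand, 26.7% of the exon bases of Fdps are shared with Gm43738, which had 17 counts in total. The thiolase Acat2, mevalonate kinase Mvk and phosphomevalonate kinase Pmvk were not called, with log2 fold changes from −0.28 to −0.09.

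Sqle, the squalene epoxidase that performs the first oxygen-dependent step of sterol synthesis (chromosome 15, 59315077 to 59331192, plus strand), had the largest difference among the members in both genotypes. It had 6.92 and 6.59 CPM in mCre-MP against 27.3 and 23.5 CPM in mCre-TN, and 5.56 and 7.08 CPM in WT-MP against 23.9 and 25.3 CPM in WT-TN. The MP libraries were all far below the TN libraries. Sqle fell by 1.89 in mCre (SE 0.126, adjusted p = 6.92e-10) and by 1.95 in WT (SE 0.13, adjusted p = 5.61e-10), to 0.271 and 0.259 of the TN level. Neither of the neighbouring steps was called. Fdft1, the squalene synthase before it, differed by −0.19 in mCre and −0.20 in WT, with 18.3% of its exon bases shared with Ctsb on the opposite strand. Lss, the lanosterol synthase after it, differed by −0.21 in mCre and by −0.00 in WT.

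Enzymes that turn lanosterol into cholesterol divided into those that fell and those that were not called. Cyp51, the lanosterol 14-alpha-demethylase (chromosome 5, 4081145 to 4104746, minus strand), had 12.9 and 13.6 CPM in mCre-MP against 27.9 and 27.8 CPM in mCre-TN. The WT values were 17.6 and 15 CPM in WT-MP against 26.3 and 33.3 CPM in WT-TN. Cyp51 fell by 1.04 in mCre (SE 0.114, adjusted p = 7.07e-07) and by 0.86 in WT (SE 0.113, adjusted p = 6.88e-06). Tm7sf2, a sterol delta-14 reductase, had 3.81 and 3.62 CPM in mCre-MP against 7.82 and 6.58 CPM in mCre-TN, and 4.92 and 5.94 CPM in WT-MP against 7.05 and 8.77 CPM in WT-TN. It fell by 0.93 in mCre (SE 0.186, adjusted p = 0.000642) and by 0.54 in WT (SE 0.181, adjusted p = 0.0289). The WT call was lost without WT-MP replicate 1 (adjusted p = 0.221) or WT-TN replicate 2 (0.284), and 12.1% of the exon bases of Tm7sf2 are shared with Vps51 on the same strand.

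Msmo1, the methylsterol monooxygenase, had 21.3 and 20.7 CPM in mCre-MP against 26.8 and 24.6 CPM in mCre-TN, and 20.8 and 21.3 CPM in WT-MP against 22.6 and 27.5 CPM in WT-TN. It was called in mCre (−0.27, SE 0.098, adjusted p = 0.044) but not in WT (−0.24, SE 0.101, adjusted p = 0.0745). Leaving out any 1 of the 4 mCre libraries ended the mCre call (adjusted p = 0.057 to 0.281), and without WT-TN replicate 1 the WT difference was called (adjusted p = 0.0197). Sc5d, the lathosterol desaturase, had 25.6 and 26.3 CPM in mCre-MP against 36 and 33.6 CPM in mCre-TN, and 22.5 and 23.1 CPM in WT-MP against 28.4 and 28.4 CPM in WT-TN. It fell by 0.39 in mCre (SE 0.078, adjusted p = 0.000626) and by 0.30 in WT (SE 0.0827, adjusted p = 0.00863), a WT call lost without WT-MP replicate 1 (0.0637). Dhcr7, the reductase that turns 7-dehydrocholesterol into cholesterol, had 22.5 and 25 CPM in mCre-MP against 33.0 and 28.2 CPM in mCre-TN, and 22.0 and 20.9 CPM in WT-MP against 29.3 and 29.0 CPM in WT-TN. Dhcr7 fell by 0.34 in mCre (SE 0.0913, adjusted p = 0.00728) and by 0.43 in WT (SE 0.0954, adjusted p = 0.00188), and its mCre call was lost without mCre-TN replicate 1 (0.171) or mCre-MP replicate 1 (0.0943). Nsdhl, Hsd17b7 and Ebp, which remove the C4 methyl carbons, reduce the 3-keto group and shift the ring double bond, were not called and lay between −0.22 and 0.12.

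**Figure D2:**
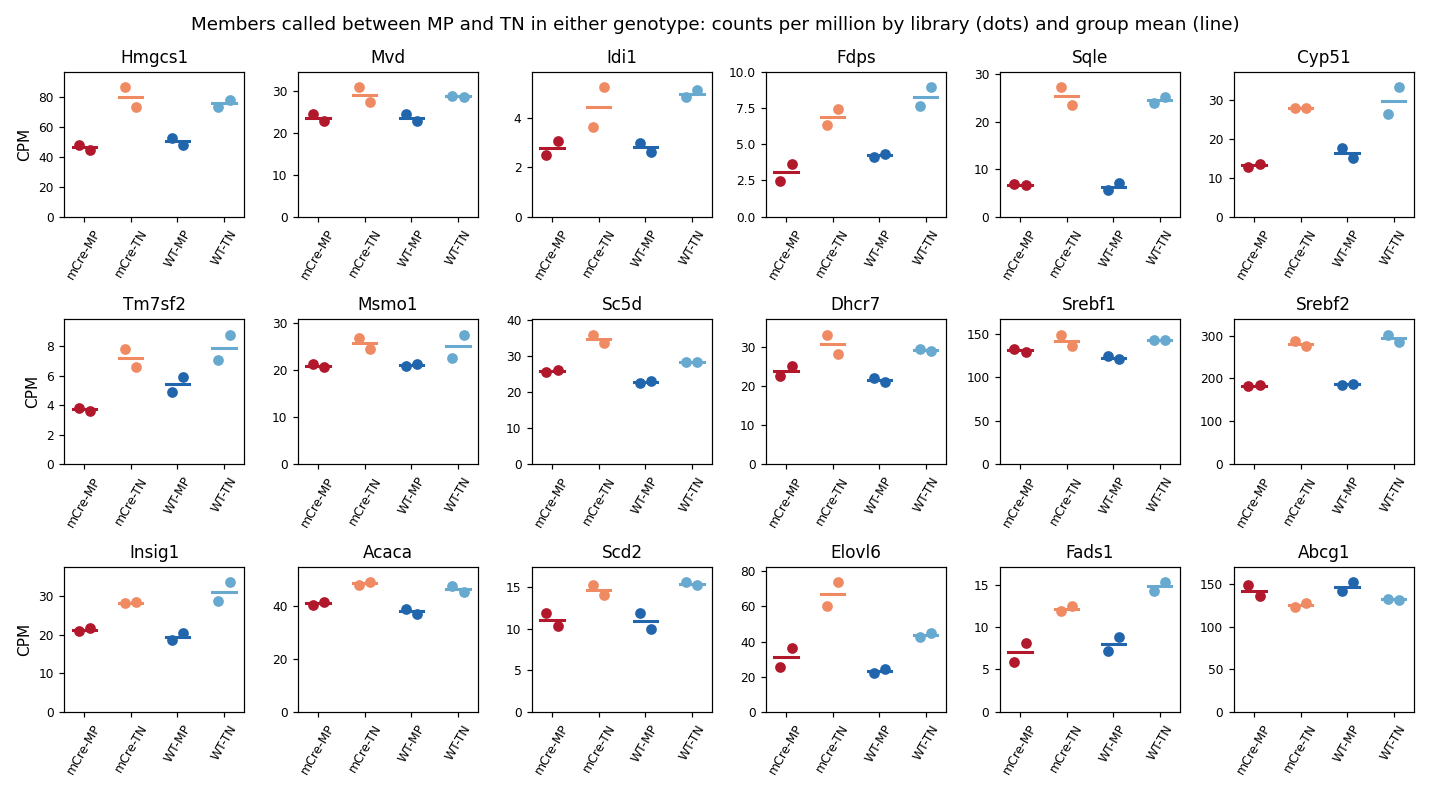
CPM in each of the 8 libraries (dots) with the group mean (line) for the 18 members called between MP and TN in at least 1 genotype, on axes that start at 0. Sqle lay between 5.56 and 7.08 CPM in the 4 MP libraries and between 23.5 and 27.3 CPM in the 4 TN libraries, and Abcg1 alone was called higher in MP.

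Promoter sequence of the members was searched for motifs known from sterol-regulated genes. RefSeq promoter windows on GRCm38.p6, from 250 bases before to 50 bases after each start site, were found for 26 members with 34 start sites. The sterol regulatory element bound by SREBP was searched as TCACNCCAC on both strands, together with CCAAT, the box bound by NF-Y, and GGGCGG, the GC box bound by Sp1. TCACNCCAC was found in 1 of the 26 genes, Hmgcs1, 137 bases before its start, and in 1.39% of tested genes with a window (1.24% of all 32851 promoters). Sterol regulatory elements with other letters were not searched for, so a window without this match may still hold one. CCAAT was found in 20 of the 26 genes, among them 14 of 15 sterol synthesis enzymes, whereas 43.2% of tested genes with a window held it in at least 1 window. GGGCGG was found in 22 of the 26 genes, 14 of 15 sterol enzymes among them, beside 67.1% of tested genes. These matches are letters in a window and do not show binding. The windows of 3 sterol enzymes called lower in both genotypes, with 1 start site each, show these motifs in capitals, in transcript direction (ATTGG and CCGCCC are CCAAT and GGGCGG on the other strand).
Hmgcs1 (chr13:119690101-119690400, plus strand): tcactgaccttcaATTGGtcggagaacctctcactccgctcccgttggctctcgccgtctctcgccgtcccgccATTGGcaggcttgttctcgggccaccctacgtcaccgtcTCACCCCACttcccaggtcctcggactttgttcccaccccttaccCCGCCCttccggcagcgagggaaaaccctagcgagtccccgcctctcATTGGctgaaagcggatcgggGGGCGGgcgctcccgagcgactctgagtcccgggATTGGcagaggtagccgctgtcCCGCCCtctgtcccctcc
Cyp51 (chr5:4104648-4104947, minus strand): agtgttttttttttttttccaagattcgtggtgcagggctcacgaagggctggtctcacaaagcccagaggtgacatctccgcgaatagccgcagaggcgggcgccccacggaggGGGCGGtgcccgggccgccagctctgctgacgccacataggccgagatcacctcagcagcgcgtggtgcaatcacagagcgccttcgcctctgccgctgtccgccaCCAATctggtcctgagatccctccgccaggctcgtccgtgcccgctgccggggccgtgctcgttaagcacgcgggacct
Sc5d (chr9:42264251-42264550, minus strand): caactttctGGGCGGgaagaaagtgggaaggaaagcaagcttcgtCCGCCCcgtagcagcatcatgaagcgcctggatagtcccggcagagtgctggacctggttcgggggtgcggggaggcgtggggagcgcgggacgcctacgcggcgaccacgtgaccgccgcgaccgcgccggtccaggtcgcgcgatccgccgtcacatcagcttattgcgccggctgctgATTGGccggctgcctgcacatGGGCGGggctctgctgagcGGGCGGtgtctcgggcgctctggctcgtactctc
In the Hmgcs1 window the sterol regulatory element stands between CCAAT boxes at −176 and −45 on the opposite strand. The Cyp51 window holds 1 CCAAT, at −29, and the Sc5d window 1, at −24 on the opposite strand.

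Among the regulators, the gene of SREBP2 fell and that of its escort was not called. Srebf2, the SREBP that drives the sterol genes (chromosome 15, 82147181 to 82205379, plus strand), had 181 and 185 CPM in mCre-MP against 288 and 275 CPM in mCre-TN. The WT libraries had 184 and 188 CPM in WT-MP against 302 and 286 CPM in WT-TN. Srebf2 fell by 0.58 in mCre (SE 0.0496, adjusted p = 1.88e-08) and by 0.64 in WT (SE 0.0498, adjusted p = 5.06e-09). Srebf1, whose SREBP1c product favours fatty acid genes, had 133 and 129 CPM in mCre-MP against 149 and 136 CPM in mCre-TN, and 124 and 121 CPM in WT-MP against 143 and 143 CPM in WT-TN. Srebf1 was called in WT (−0.21, SE 0.0539, adjusted p = 0.00592) and not in mCre (−0.09, SE 0.053, adjusted p = 0.228), and the difference between genotypes was not called (interaction 0.12, SE 0.0756, adjusted p = 0.923). Without WT-MP replicate 2 the WT call of Srebf1 was lost (adjusted p = 0.0562).

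Insig1, which retains SCAP and is itself an SREBP target (chromosome 5, 28071363 to 28078662, plus strand), had 20.9 and 21.8 CPM in mCre-MP against 28.2 and 28.4 CPM in mCre-TN. It had 18.6 and 20.3 CPM in WT-MP against 28.8 and 33.6 CPM in WT-TN. Insig1 fell by 0.37 in mCre (SE 0.092, adjusted p = 0.00388) and by 0.67 in WT (SE 0.0946, adjusted p = 1.63e-05). The other regulators were not called in either genotype. Scap, which senses sterols, differed by −0.09 and −0.08, Insig2, the second retention protein, by 0.06 and −0.07, and Stard4, a cholesterol carrier, by −0.18 and −0.08 in mCre and WT. Stard4 was called in mCre without mCre-TN replicate 2 (adjusted p = 0.0386).

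In fatty acid synthesis, 4 of 6 tested genes were called lower in mCre and 4 of 6 in WT, beside 15.5% and 15.6% of all genes, and the calls fell on desaturation, elongation and carboxylation. Elovl6, which elongates palmitate to stearate (chromosome 3, 129532355 to 129638495, plus strand), had 25.7 and 36.5 CPM in mCre-MP against 60.2 and 73.8 CPM in mCre-TN, and 21.8 and 24.5 CPM in WT-MP against 42.3 and 44.7 CPM in WT-TN. It fell by 1.05 in mCre (SE 0.181, adjusted p = 0.00669) and by 0.90 in WT (SE 0.196, adjusted p = 0.0176). The WT call was lost without any 1 of the 4 WT libraries (adjusted p = 0.0892 to 0.132), and the mCre call was lost in a fit of the mCre groups alone (0.0854). Fads1, the delta-5 desaturase of polyunsaturated fatty acids (chromosome 19, 10182888 to 10196877, plus strand), had 5.89 and 8.10 CPM in mCre-MP against 11.9 and 12.4 CPM in mCre-TN, and 7.18 and 8.82 CPM in WT-MP against 14.3 and 15.3 CPM in WT-TN. Fads1 fell by 0.75 in mCre (SE 0.153, adjusted p = 0.000788) and by 0.88 in WT (SE 0.152, adjusted p = 0.00017).

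Scd2, a stearoyl-CoA desaturase, had 11.9 and 10.3 CPM in mCre-MP against 15.3 and 14.1 CPM in mCre-TN, and 11.9 and 9.96 CPM in WT-MP against 15.6 and 15.2 CPM in WT-TN. It fell by 0.38 in mCre (SE 0.125, adjusted p = 0.0235) and by 0.47 in WT (SE 0.128, adjusted p = 0.00784). Scd2 has close paralogs, and reads may have been shared with them. Acaca, the acetyl-CoA carboxylase that commits carbon to fatty acids, had 40.4 and 41.6 CPM in mCre-MP against 48.1 and 49.0 CPM in mCre-TN, and 39.0 and 37.0 CPM in WT-MP against 47.7 and 45.5 CPM in WT-TN. Acaca fell by 0.21 in mCre (SE 0.0675, adjusted p = 0.0231) and by 0.28 in WT (SE 0.07, adjusted p = 0.00506). The Scd2 call was lost in mCre without mCre-TN replicate 1 (adjusted p = 0.169) or mCre-MP replicate 2 (0.225), and in WT without WT-MP replicate 2 (0.11). That of Acaca was lost in mCre without any 1 of the 4 mCre libraries (0.0614 to 0.131), and in WT without WT-TN replicate 1 (0.0507) or WT-MP replicate 2 (0.0628).

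The most abundant fatty acid genes were not called. Acly had 275 and 273 CPM in mCre-MP against 279 and 288 CPM in mCre-TN, and 264 and 257 CPM in WT-MP against 301 and 274 CPM in WT-TN (−0.02 and −0.12 in mCre and WT). Fasn, the fatty acid synthase, had 200 and 205 CPM in mCre-MP against 201 and 219 CPM in mCre-TN, and 198 and 170 CPM in WT-MP against 228 and 188 CPM in WT-TN (−0.02 and −0.16). Without WT-TN replicate 2 both were called lower in WT, Acly with an adjusted p of 0.024 and Fasn with 0.0334.

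Of the exporters, Abcg1 rose and Abca1 was not called. Abcg1, which passes cholesterol to high-density lipoprotein (chromosome 17, 31057675 to 31117988, plus strand), had 149 and 136 CPM in mCre-MP against 123 and 128 CPM in mCre-TN, and 142 and 152 CPM in WT-MP against 133 and 132 CPM in WT-TN. It rose by 0.21 in mCre (SE 0.0557, adjusted p = 0.00582) and by 0.17 in WT (SE 0.0563, adjusted p = 0.0271). Both calls depend on single libraries. The mCre call was lost without mCre-TN replicate 1 (adjusted p = 0.0712) or mCre-MP replicate 1 (0.122), and the WT call without WT-TN replicate 1 (0.0588), WT-TN replicate 2 (0.0882) or WT-MP replicate 2 (0.209). Abca1, which loads apolipoprotein A-I, had 58.4 and 50.0 CPM in mCre-MP against 57.5 and 59.3 CPM in mCre-TN, and 50.8 and 48.5 CPM in WT-MP against 55.5 and 52.8 CPM in WT-TN (−0.08 and −0.11).

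**Figure D3:**
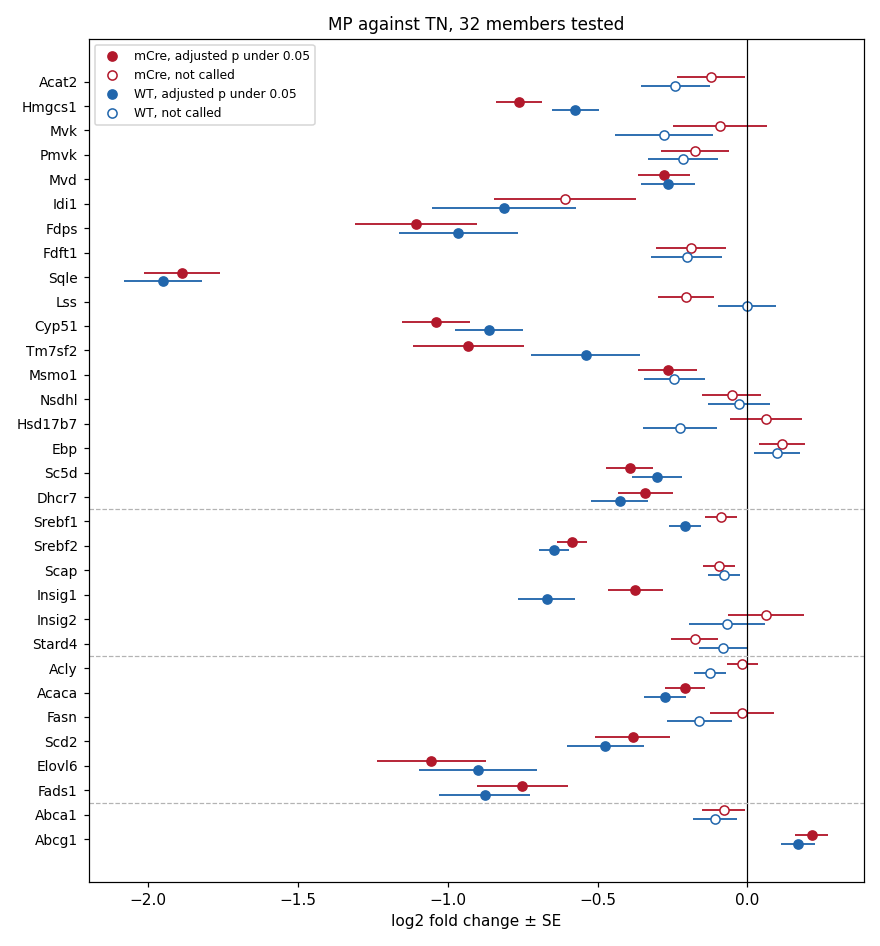
Log2 fold change of MP against TN with its SE for the 32 tested members, mCre in red above WT in blue, with filled points at an adjusted p under 0.05 and dashed lines between roles. Sqle stands farthest to the left at −1.89 and −1.95, and Abcg1 is the only filled point to the right of 0.

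A model with all 8 libraries and genotype as covariate set 4 MP against 4 TN libraries. It called 17 of 32 members lower and 1 higher, where 45.3% of all genes were called, 22.1% lower and 23.2% higher, and all 18 calls were kept under each alternative that was run. Markers of NK cells also moved with the subset, with 6 of 6 higher in MP in both genotypes. Their sums were 191 to 212 CPM in mCre-MP against 33.7 to 39.8 in mCre-TN, and 225 to 238 in WT-MP against 45.6 to 52.8 in WT-TN. Nearly all of each sum is Eomes, a transcription factor that memory CD8 T cells also express, with 181 to 205 CPM in mCre-MP against 31.4 to 38.6 in mCre-TN, and 213 to 224 in WT-MP against 43.3 to 50.1 in WT-TN. The other 5 markers summed to 7.52 to 10.1 CPM in mCre-MP against 1.19 to 2.3 in mCre-TN, and to 12.7 to 14.3 in WT-MP against 2.31 to 2.67 in WT-TN. Ncr1, which marks NK cells, had 3 and 15 counts in mCre-MP and 5 and 15 in WT-MP, and 0 in each TN library. Macrophage markers were called in 0 of 13 cases by edgeR in either genotype (0 at an unadjusted p under 0.05). Of the other marker lists, 1 of 4 tested B cell and 1 of 5 tested dendritic cell markers were called higher in each genotype. Of 3 tested CD4 T cell markers, 1 was called higher and 1 lower in mCre, and 1 and 2 in WT. In both genotypes 0 of 4 tested erythroid markers were called. Of all genes, 32.5% were called in mCre and 31.7% in WT. The part of these cells in the member differences was not tested.

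Genes around the members moved in both directions. Of 19 other sterol genes, 5 were called lower and 3 higher in MP in each genotype, 42.1% called against 32.5% of all genes in mCre and 31.7% in WT. Soat2, which esterifies cholesterol for storage, had 14.7 and 17.3 CPM in mCre-MP against 0.732 and 0.518 CPM in mCre-TN, and 17.8 and 18.9 CPM in WT-MP against 0.593 and 0.646 CPM in WT-TN. It rose by 4.65 in mCre (SE 0.199, adjusted p = 7.2e-13) and by 4.88 in WT (SE 0.218, adjusted p = 1.54e-12). The WT-TN values rest on 8 and 12 counts. Npc1, which moves cholesterol out of lysosomes, rose by 0.50 and 0.64 in mCre and WT, whereas its soluble partner Npc2 fell by 0.39 and 0.60. Mbtps1, the first protease that cleaves SREBP, fell by 0.26 and 0.31. Part of the Npc1 exons (4.52%) is shared with Rmc1 on the opposite strand.

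Of 18 other tested fatty acid genes, 5 were called higher and 1 lower in mCre, and 7 and 1 in WT. These are 33.3% and 44.4% called, beside 32.5% and 31.7% of all genes, so the mCre share is near that of all genes. Lpin1, a phosphatidate phosphatase of triglyceride synthesis, rose by 0.87 in mCre and 1.15 in WT, and the acyl-CoA synthetase Acsl3 fell by 1.14 and 1.32. Acss2, which makes acetyl-CoA from acetate, rose by 0.29 and 0.20, the WT call being lost without WT-TN replicate 1 (adjusted p = 0.0847). Oxsm, a mitochondrial fatty acid synthase enzyme, rose by 0.54 and 0.45, the WT call being lost without WT-MP replicate 2 (0.119). Acsl1 rose by 0.74 in mCre, and Gpam, a glycerol phosphate acyltransferase, rose by 0.38 in WT, a call lost without WT-TN replicate 2 (0.0551). Among 10 genes of LXR, its partners and other targets, 4 were called higher and 1 lower in each genotype, 50% called beside 32.5% of all genes in mCre and 31.7% in WT. Mylip, an LXR-induced ubiquitin ligase, rose by 0.69 in mCre and 0.59 in WT. Plin2, a lipid droplet coat protein, rose by 0.93 and 0.63, and the mCre call was lost on leaving out mCre-MP replicate 1 (0.0528). Its WT call was lost with DESeq2 (adjusted p = 0.111), voom (0.0707) or a fit of the WT groups alone (0.0515). Leaving out WT-TN replicate 1, WT-MP replicate 1 or WT-TN replicate 2 also ended the WT call of Plin2. Lpcat3, a phospholipid acyltransferase, fell by 0.32 in mCre, the retinoid receptor Rxra rose by 0.23 in mCre and 0.24 in WT, and Rxrb fell by 0.16 in WT. With DESeq2 the call of Rxra was lost in mCre (adjusted p = 0.108) and in WT (0.102), and that of Rxrb in WT (0.111). Scaling by total counts only ended the mCre call of Rxra (0.0658). The WT call of Rxrb was lost without the expression filter (0.066) or in a fit of the WT groups alone (0.059). Leaving out mCre-MP replicate 1 or mCre-TN replicate 2 ended the mCre call of Rxra. Its WT call was lost without WT-MP replicate 1, WT-TN replicate 2 or WT-MP replicate 2. That of Rxrb was lost without WT-MP replicate 1, WT-TN replicate 2, mCre-MP replicate 1 or mCre-TN replicate 2. Smpdl3a, a phosphodiesterase, rose by 0.26 and 0.31, the mCre call being lost without mCre-MP replicate 1 (0.0707) or mCre-TN replicate 2 (0.0637).

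Few members were called between genotypes, as were few genes in all. In MP cells 0 of 32 members were called between mCre and WT by edgeR, DESeq2 or voom. Of all genes, 4.04% were called by edgeR (2.08% higher and 1.97% lower), 3.11% by DESeq2 and 3.9% by voom. By edgeR 3 members had an unadjusted p under 0.05, beside 2132 of all 12313 genes. In TN cells 0 were called by edgeR and DESeq2 and 1 by voom. Of all genes in TN, edgeR called 3.47% (1.55% higher and 1.92% lower), DESeq2 2.95% and voom 2.66%. Here too 3 members had an unadjusted p under 0.05 by edgeR, beside 2090 of all 12313 genes. In MP the mCre libraries lay above the WT libraries for 10 members and below them for 9, beside 24.1% and 24.8% of all genes, and in TN for 6 and 7, beside 25.2% and 20.6%. The median log2 fold change of the members was −0.00318 in MP and −0.0411 in TN. The interaction, which tests whether the MP against TN difference depends on genotype, called 0 members by edgeR, DESeq2 or voom. It called 0.13% of all genes by edgeR (0.0487% higher and 0.0812% lower), 0.211% by DESeq2 and 0.0569% by voom. Insig1 was the 1 member with an unadjusted interaction p under 0.05 (0.30, SE 0.132, adjusted p = 0.816), beside 729 of all 12313 genes.

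Elovl6 had the largest positive mCre against WT difference among the members in both subsets, and Tm7sf2 the largest negative one in MP. For Tm7sf2 it was −0.54 in MP (SE 0.192, adjusted p = 0.132), with libraries that did not overlap, and −0.15 in TN (SE 0.176, adjusted p = 0.723), where they overlapped. The Elovl6 libraries, given above, did not overlap between genotypes, and Elovl6 differed by 0.44 in MP (SE 0.197, adjusted p = 0.334) and by 0.60 in TN (SE 0.18, adjusted p = 0.172). It was called in MP without mCre-MP replicate 1 (adjusted p = 0.00575) and in TN without mCre-MP replicate 1 (0.00112) or mCre-MP replicate 2 (0.00116). Without the expression filter it was called in MP (0.0209) and in TN (0.000324), and in TN also with voom (0.0314) and in a fit of the TN groups alone (0.00073). With subset as covariate, 4 mCre against 4 WT libraries, Elovl6 rose by 0.53 (SE 0.127, adjusted p = 0.0456) and Sc5d by 0.23 (SE 0.0574, adjusted p = 0.0106). They were 2 of 32 members called higher and 0 lower, where 11% of all genes were called, 5.06% higher and 5.97% lower. At an unadjusted p under 0.05 by edgeR there were 10 members, beside 3045 of all 12313 genes. For Sc5d the mCre libraries were above the WT libraries within MP and within TN, and its call was kept under each alternative. The Elovl6 call was lost without any 1 of the WT libraries (adjusted p = 0.1 to 0.157) or without mCre-MP replicate 2 (0.0691). In that model Cyp51 was called lower without WT-TN replicate 1 (−0.29, adjusted p = 0.02), against −0.20 with all libraries (SE 0.0804, adjusted p = 0.121).

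Of the other lipid genes, 2 of 18 in fatty acid synthesis (11.1%) and 1 of 10 around LXR (10%) were called in MP, beside 4.04% of all genes. In TN 1 of 18 (5.56%) and 0 of 10 were called, beside 3.47%. By edgeR 1 and 4 had an unadjusted p under 0.05, beside 2090 of all 12313 genes. Acsl5 (0.23, adjusted p = 0.0392), Lpin1 (−0.24, adjusted p = 0.0415) and Smpdl3a (−0.24, adjusted p = 0.029) were called in MP, and Gpam (0.38, adjusted p = 0.0397) in TN. Each of these 4 calls was lost with DESeq2 (adjusted p = 0.0966 for Lpin1, 0.062 for Acsl5, 0.0521 for Smpdl3a and 0.101 for Gpam). Leaving out WT-MP replicate 1, WT-MP replicate 2 or mCre-MP replicate 2 ended each of the 3 MP calls (adjusted p = 0.0598, 0.306 and 0.432 for Lpin1, 0.14, 0.262 and 0.245 for Acsl5, 0.194, 0.0714 and 0.301 for Smpdl3a). The Acsl5 call was also lost without WT-TN replicate 1 (0.0528) or mCre-MP replicate 1 (0.127), and that of Gpam without any 1 of the TN libraries (0.0569 to 0.263).

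The summed macrophage and monocyte markers had lower levels, and the summed erythroid markers higher levels, in mCre than in WT within each subset. The 13 macrophage and monocyte markers summed to 32.5 and 32.04 CPM in mCre-MP against 67.4 and 42.6 CPM in WT-MP, and to 29.1 to 31.7 CPM in mCre-TN against 45.6 to 63.8 CPM in WT-TN. In MP 2 of 13 were called lower in mCre and in TN 4 of 13, beside 1.97% and 1.92% of all genes, and none of the 13 was at 0 in any library. With subset as covariate, 9 of the 13 were called lower in mCre, beside 5.97% of all genes. Macrophages express Abca1 and Abcg1, which differed by 0.12 and −0.04 in MP and by 0.09 and −0.09 in TN without a call. Of the erythroid markers, 4 were tested, all with positive differences in both subsets (medians 0.73 in MP and 0.72 in TN), and 2, Hba-a1 and Alas2, were called higher with subset as covariate. Their list summed to 22.6 to 31.6 CPM in mCre-MP against 12 to 20.6 CPM in WT-MP, and to 25.1 to 47.1 CPM in mCre-TN against 20.2 to 21.4 CPM in WT-TN. In MP the 6 NK cell markers had negative differences, 3 at an unadjusted p under 0.05 (beside 2132 of all 12313 genes) and 0 called by edgeR. The part of any of these cells in the member values was not tested.

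**Figure D4:**
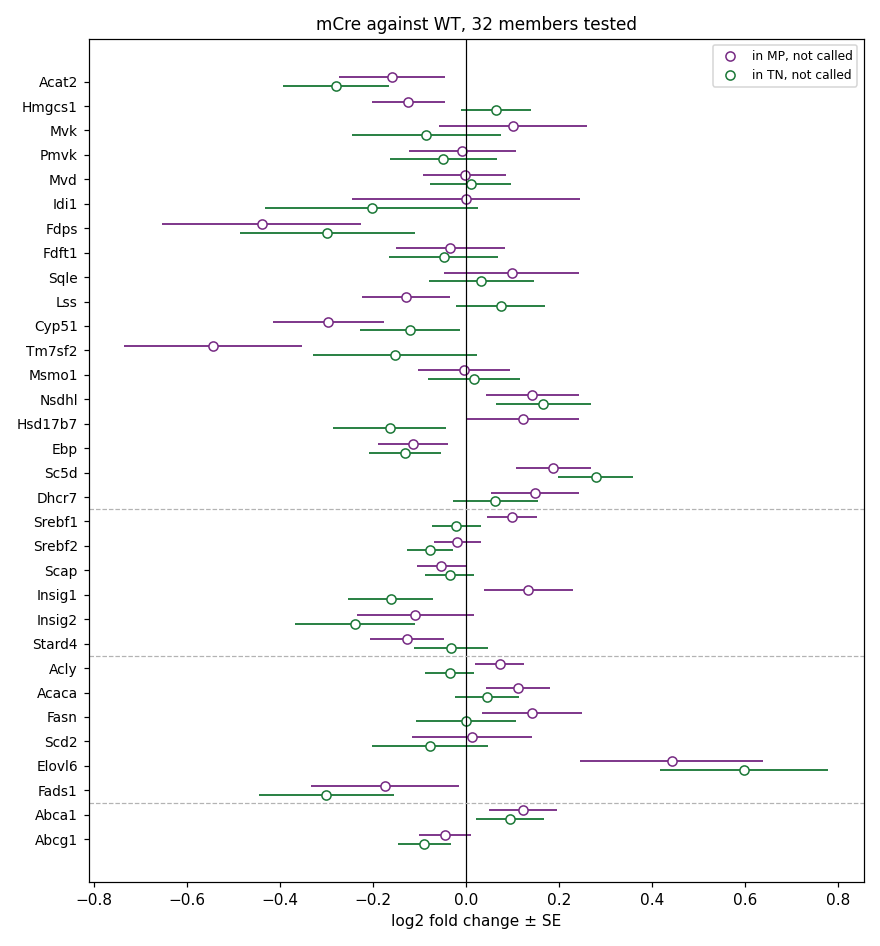
Log2 fold change of mCre against WT with its SE for the 32 tested members, in MP (purple) above TN (green), with open points where the adjusted p was 0.05 or more and dashed lines between roles. All points are open, and Elovl6 lies farthest to the right at 0.44 in MP and 0.60 in TN.

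Because the series title names miR-29, the members' longest annotated 3' UTRs were searched for TGGTGCT, the bases that pair with positions 2 to 8 of its mature forms. The mature sequences from RefSeq (GRCm38.p6) share 1 seed, in capitals.
mmu-miR-29a-3p: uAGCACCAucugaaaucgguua
mmu-miR-29b-3p: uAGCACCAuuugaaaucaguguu
mmu-miR-29c-3p: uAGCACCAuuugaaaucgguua
Of the 32 tested members, 4 held the match (12.5%), as did 16.7% of 11654 tested genes with such a UTR. The median UTR length was 1583 bases for the members and 1333 for all. The sites of these 4 members are shown in transcript direction with the match in capitals, and all lie in 3' UTRs of GENCODE M21 on GRCm38.
Hmgcs1 (match at chr13:119707582-119707588, plus strand): tctctggatgattttTGGTGCTgaacaatg
Fdft1 (match at chr14:63146577-63146583, minus strand): ttgccctcagcagccTGGTGCTggctggga
Cyp51 (match at chr5:4082229-4082235, minus strand): gctctgttgctggagTGGTGCTgcacacct
Insig1 (match at chr5:28077199-28077205, plus strand): aaggagggaggttgaTGGTGCTtaacagag
Between mCre and WT, Hmgcs1 differed by −0.12 in MP and 0.06 in TN, Fdft1 by −0.03 and −0.05, Cyp51 by −0.30 and −0.12, and Insig1 by 0.13 and −0.16, each without a call. A match describes the letters of the UTR and does not show that the gene is a target in these cells.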

How the data were processed

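Messenger RNA of 8 libraries of mouse spleen CD8+ T cells was read from 1 deposited table that holds raw counts for each gene symbol. Per the submitters' processing notes, the authors used Trim Galore, HISAT2 and featureCounts with build mm10; versions, annotation, strand setting and the treatment of reads matching several places were not given in the sources used here, although the kit marks strand. Reads of overlapping genes and of paralogs may therefore have been counted for either gene. Groups came from the sample titles.

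Counts were tested with edgeR 4.0.16 (R 4.3.3), quasi-likelihood test, TMM scaling, robust dispersions and its expression filter, in 1 fit of all 8 libraries with a mean per group, adjusted with the Benjamini-Hochberg method over 12313 genes, two-sided. SE is the log2 fold change divided by the square root of F. CPM is relative to total counts. Alternatives were other scalings, filters, DESeq2 1.42.0, voom (limma 3.58.1), the replicate number as a block, fits of 2 groups and each library left out. Where a group keeps 1 library, it is assumed to vary like the others. Procedures were tested on simulated data. Gene lengths, UTRs and overlaps came from GENCODE M21 (GRCm38, also called mm10), promoters and microRNAs from RefSeq.

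The members and lists were chosen with earlier results of these data known. Values in every library are given for members called in at least 1 comparison of 2 groups. Of the other lists, up to 4 called genes with the smallest p are named. Promoters are shown for called sterol enzymes with the smallest p in WT among those with a window, leaving out Dhcr7, which has 3 windows. Some genes measured are not reported here, and the next by p stand in for them.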

Additional observations from a re-analysis of the deposited data

How the results depend on the processing

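Of the member calls between MP and TN, 9 of 16 in mCre and 8 of 17 in WT were kept under each alternative, and 0 changed direction. With DESeq2, 12 members were called in mCre and 14 in WT, against 16 and 17 with edgeR. Of all genes, DESeq2 called 25.4% in mCre and 25.1% in WT, against 32.5% and 31.7% with edgeR. Leaving out any 1 library of the compared groups lowered the share of all genes called in that comparison, in mCre and in WT. The median log2 fold change of the members then lay between −0.295 and −0.209 in mCre, against −0.207 with all libraries. In WT it lay between −0.277 and −0.232, against −0.255. With 1 library left out, the count in WT lay between 10 and 17 and in mCre between 11 and 16. Between mCre and WT, where edgeR called 0 members in MP and 0 in TN, leaving out 1 library gave 0 to 1 in each, and across subsets 1 to 2 against 2. Without the expression filter 1 member was called in MP (Elovl6, adjusted p = 0.0209) and 2 in TN (Elovl6, 0.000324, and Sc5d, 0.0458). Of all genes, 4.64% and 4.09% were then called. Elovl6 was also the 1 member called in TN with voom (0.0314) and with the TN groups alone (0.00073), beside 2.66% and 3.76% of all genes. The replicate numbers are shared by the groups. The differences between replicates 1 and 2 correlated by −0.0446 to 0.109 between groups over 12313 genes. The highest value, between WT-MP and WT-TN, was just above the 0.1 that had been set for a pairing. That between mCre-MP and mCre-TN was 0.0769. The fit as reported did not take the numbers as pairs. With the replicate block, 1 member (Elovl6) was called between mCre and WT in MP (adjusted p = 0.00954) and 1 in TN (0.000257). Of all genes, the block called 5.01% in MP and 4.45% in TN, against 4.04% and 3.47% without it. In each MP against TN comparison it called 17 members, beside 33.7% of all genes in mCre and 32.8% in WT. The cause of these changes was not tested. Another scaling moved the median of all genes by less than 0.1. With 2 libraries per group, SEs of the members ran from 0.0492 to 0.244 on the log2 scale between groups, which limits what could be called.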

Other observations

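Fatty acid oxidation genes, which burn the products of the pathway described above, were mostly without a call between the subsets. Of 16 tested genes, 1 was called higher and 1 lower in mCre-MP against mCre-TN, and 2 and 1 in WT, 12.5% and 18.8% against 32.5% and 31.7% of all genes. Acadm, the medium-chain acyl-CoA dehydrogenase, had 48.0 and 48.6 CPM in mCre-MP against 63.7 and 64.0 CPM in mCre-TN, and 50.7 and 52.0 CPM in WT-MP against 71.2 and 66.7 CPM in WT-TN, and fell by 0.37 (SE 0.0606, adjusted p = 8.85e-05) and 0.41 (SE 0.0615, adjusted p = 3.42e-05, edgeR). Etfb, a chain of the flavoprotein that takes electrons from such dehydrogenases, had 60 and 60.5 CPM in mCre-MP against 41.4 and 37.2 CPM in mCre-TN, and 54.4 and 54.9 CPM in WT-MP against 41.6 and 40.0 CPM in WT-TN, and rose by 0.64 (SE 0.0666, adjusted p = 3.11e-07) and 0.44 (SE 0.0692, adjusted p = 5.82e-05). On the same strand, 53% of the exon bases of Etfb are shared with the annotated gene Gm45233. Eci1, an enoyl-CoA isomerase, was called in WT (0.28, adjusted p = 0.0388). This call was lost with DESeq2 (0.113), with scaling by total counts only (0.0503) and without any 1 of the WT libraries.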
